A study of Mus musculus with 8 samples.

Results

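The variable segments of the T cell receptor were followed through 8 RNA-seq libraries of mouse pancreatic tumours. Members were all rows of the deposited count table whose gene biotype was TR_V_gene, and they came to 144 of 54532 genes. By the prefix of the gene name, 108 belonged to the alpha-chain locus (Trav), 22 to the beta-chain locus (Trbv), 7 to the gamma-chain locus (Trgv) and 5 to the delta-chain locus (Trdv). Of the Trav members, 10 carried an additional dv number, given to segments that can serve in an alpha or a delta chain, and were kept with Trav. For the gamma locus the table named 1 segment Trgv2 and 6 by the older style (Tcrg-V1 and Tcrg-V3 to Tcrg-V7). A further 2 members, C920008G01Rik and B230359F08Rik, had no locus prefix. They lie within the Trav cluster on chromosome 14 and had no read in any library.

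The tumours grew in the pancreas of C57BL/6 mice from implanted KPC cells, a line of mouse pancreatic ductal adenocarcinoma. The mice received TLQP21, a fragment of the secreted neuronal protein VGF, or saline for 2 weeks, and each group gave 4 libraries. The labels named pancreatic cancer cells as the cell type, but the RNA was that of harvested tumours, which also hold stroma and immune cells. The labels gave neither the age of the mice nor whether each library was a separate animal, and the spread behind each p-value is that between libraries, which may be technical in part. Libraries 1 and 2 of each group had many reads of Xist, which coats the inactive X, and libraries 3 and 4 did not. The latter are called libraries with Y-linked transcripts as a label only. Xist alone was used to part the 2 kinds, and reads of Y-linked genes are not given here. Differences are therefore also given within each of these 2 kinds of library.

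Each chain of a T cell receptor begins with a variable domain that the cell assembles from gene segments. A developing T cell joins a V segment to a J segment, with a D segment between them in beta and delta chains, and transcribes the joined exon together with the constant gene of the locus. Reads on V segments thus show which segments are used by the T cells in a tissue, apart from transcripts of segments that were not joined. Most T cells carry an alpha-beta receptor, while gamma-delta T cells carry the other kind and are common in epithelia. At its 3′ end a functional V segment encodes a conserved cysteine, which opens the hypervariable loop that contacts antigen, and a few bases later the J or D segment is attached.

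The 3′ ends of the gamma segments with most reads are shown because these segments carried the gamma-chain comparison below. Each line gives the last 60 bases of the transcript in GENCODE M21 (build GRCm38), 5′ to 3′ on the strand of the gene, with the codon of the conserved cysteine in capitals. Trgv2 lies on the minus strand at chr13:19336573-19337167. The other segments lie on the plus strand, Tcrg-V1 at chr13:19339989-19340454, Tcrg-V6 at chr13:19190356-19190929 and Tcrg-V7 at chr13:19178024-19178492.
Trgv2: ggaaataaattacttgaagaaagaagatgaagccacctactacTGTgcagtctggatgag
Tcrg-V1: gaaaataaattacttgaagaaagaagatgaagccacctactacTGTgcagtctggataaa
Tcrg-V6: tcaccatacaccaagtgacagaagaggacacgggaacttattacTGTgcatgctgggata
Tcrg-V7: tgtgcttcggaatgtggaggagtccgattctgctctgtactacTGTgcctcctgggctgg

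Beta segments are shown in the same way because the use of Trbv16, Trbv3, Trbv20 and Trbv15 differed most visibly between the groups, and Trbv13-2 was among the most-read. All lie on the plus strand, Trbv16 at chr6:41151740-41152230, Trbv3 at chr6:41048290-41048828, Trbv13-2 at chr6:41121396-41121832, Trbv20 at chr6:41188273-41188977 and Trbv15 at chr6:41141188-41141658. Trbv20 falls under the rule for named segments only as the leading segment of Saline 4, and Trbv15 is outside that rule. Both were chosen for display after their values were seen.
Trbv16: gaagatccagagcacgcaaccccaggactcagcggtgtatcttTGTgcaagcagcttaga
Trbv3: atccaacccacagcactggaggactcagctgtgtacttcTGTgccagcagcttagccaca
Trbv13-2: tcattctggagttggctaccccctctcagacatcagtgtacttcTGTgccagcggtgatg
Trbv20: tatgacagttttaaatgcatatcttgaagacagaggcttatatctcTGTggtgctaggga
Trbv15: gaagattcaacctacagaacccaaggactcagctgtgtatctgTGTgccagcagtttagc

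Trdv4 is shown as the most-read member, and Trav11 and Trav11d as an example of copies that a read cannot tell apart. Trdv4 lies at chr14:54074905-54075515, Trav11 at chr14:53519303-53519859 and Trav11d at chr14:52824357-52824912, all on the plus strand. The last 2 are the segments of the invariant alpha chain of natural killer T cells.
Trdv4: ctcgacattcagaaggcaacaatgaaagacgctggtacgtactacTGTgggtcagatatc
Trav11: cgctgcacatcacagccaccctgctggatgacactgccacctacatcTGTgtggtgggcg
Trav11d: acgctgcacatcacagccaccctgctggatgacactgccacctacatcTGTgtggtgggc

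A tyrosine codon, any codon and a cysteine codon in a row (TAC or TAT, NNN, TGC or TGT, in any frame and on the transcript strand only) were found in the last 40 bases of 142 of the 144 members (98.6%). The same letters were present in that window of 21 of 34 transcripts of V pseudogenes (61.8%) and of 3.60% of 58791 protein-coding transcripts.

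Reads on the 144 segments were few. A read here is 1 unit of the deposited gene counts, and the 8 libraries held 28.4 to 33.5 M of them. The segments together took 159 to 272 reads per library, or 0.000529 to 0.000941% of the library, and 1814 reads in all. With 1 or more reads in any library counted as detected, 95 segments were detected and 49 were not. Only 13 segments were detected in all 8 libraries, 14 were detected in 1 library, and 40 had at least 10 reads in all. In a tumour library, fewer T cells and less receptor RNA per T cell cannot be told apart.

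The beta locus gave the largest part of the reads with 947 (52.2%) from 22 segments, of which 21 were detected. The alpha locus gave 445 reads spread over 63 detected segments out of 108. The gamma locus gave 214 reads, and all of its 7 segments were detected. The delta locus gave 208 reads from 4 of 5 segments. Reads of the gamma and delta loci were concentrated on a single segment each, while those of the alpha locus were thinly spread, with at most 21 reads on any segment.

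For levels, reads were divided by the library total in M after trimmed-mean scaling, a correction for differences in library composition (CPM). Summed over all segments, the Saline libraries 1 to 4 had 8.82, 9.52, 7.45 and 6.81 CPM and the TLQP21 libraries 9.07, 6.62, 5.28 and 7.16 CPM. The groups overlapped, with means of 8.15 ± 1.24 and 7.03 ± 1.57 CPM (SD, n = 4). The difference of -0.23 on the log2 scale (TLQP21 minus Saline) was smaller than the spread between libraries (exact two-sided permutation p = 0.286 over 70 assignments). Within libraries with Xist it was -0.24, and within libraries with Y-linked transcripts -0.21. Adjusted by the Benjamini-Hochberg method over the 10 measures per library described here, this p was 0.514. The smallest p that 4 libraries against 4 can give is 0.0286, and none of the 10 measures had an adjusted p under 0.143.

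Alpha segments summed to 2.05 ± 0.697 CPM in Saline and 1.66 ± 0.406 CPM in TLQP21, with Saline 4 lowest at 1.10 and Saline 1 highest at 2.76 CPM. Beta segments summed to 4.21 ± 0.752 and 3.74 ± 1.07 CPM. Delta segments summed to 0.775 ± 0.0754 and 0.939 ± 0.320 CPM. For these 3 loci the groups overlapped, and the differences of -0.26, -0.19 and 0.21 on the log2 scale had exact permutation p of 0.486, 0.429 and 0.486. With 1 library left out at a time, the delta difference ran from 0.029 without TLQP21 4 (exact permutation p = 0.886) to 0.46 without TLQP21 3 (p = 0.0286, not adjusted). The alpha difference ran from -0.087 without Saline 1 to -0.53 without Saline 4, and the beta difference from -0.079 without Saline 2 to -0.38 without TLQP21 1 (exact permutation p of 0.0571 or more). Gamma segments, at 1.12 ± 0.0859 and 0.689 ± 0.234 CPM, stood further apart and are described below.

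**Figure D1:**
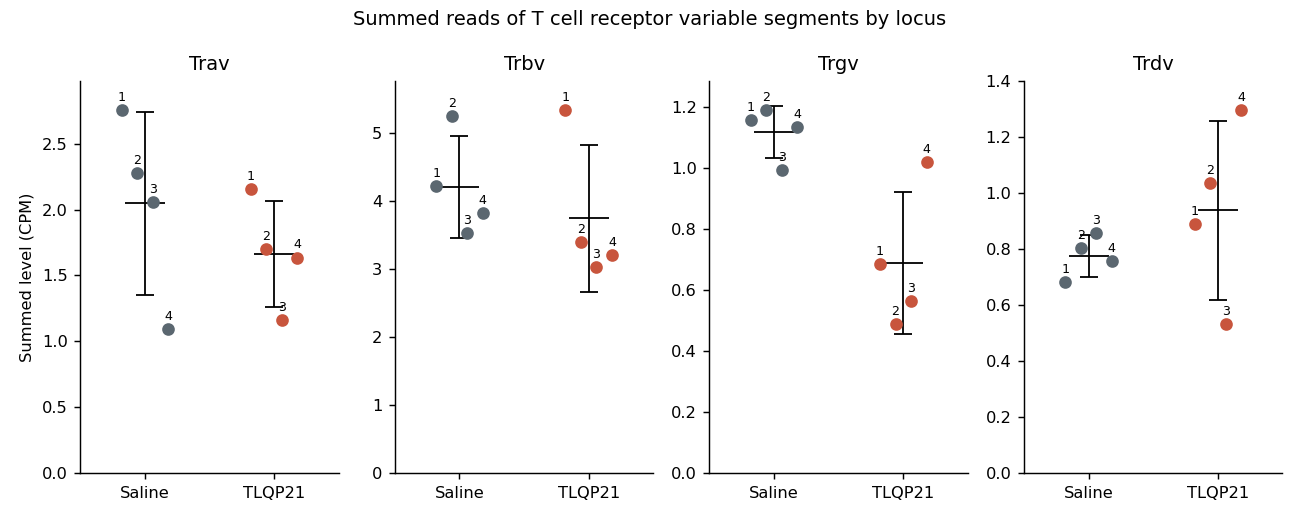
Summed CPM of the variable segments of each locus (y axis, from 0, separate scale per panel) in the 8 libraries, with points numbered by replicate, horizontal lines for group means and error bars for the SD (n = 4). The groups overlap in every panel, and in the Trgv panel only TLQP21 4, at 1.02 CPM, reaches the Saline range of 0.995 to 1.19 CPM.

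Constant genes of the receptor gave a check of the members against a readout that does not depend on segment use. The 8 constant genes held 682 to 1041 reads per library, and there were 21.1 to 29.8 V reads per 100 constant reads. The log2 ratio was -1.93 ± 0.147 in Saline and -2.05 ± 0.192 in TLQP21, a difference within the spread between libraries (exact permutation p = 0.343). By locus there were 13.2 to 30.5 Trav reads per 100 reads of Trac, the alpha constant gene, and 20.1 to 31.6 Trbv reads per 100 of Trbc1 and Trbc2, the beta constant genes. For the gamma locus there were 15.3 to 35.1 reads per 100 of the 4 Tcrg-C genes. The delta locus was different in range, from 43.5 Trdv reads per 100 reads of Trdc in Saline 4 to 600.0 in TLQP21 4.

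Across the 8 libraries, the CPM of V segments and of constant genes of a locus were compared in 4 relations, chosen after the data were seen. Pearson's r was 0.43 for Trav with Trac (permutation p = 0.287), 0.56 for Trbv with Trbc1 and Trbc2 (p = 0.159), 0.49 for Trgv with the Tcrg-C genes (p = 0.226) and -0.32 for Trdv with Trdc (p = 0.422). Spearman's rho was 0.24, 0.55, 0.62 and -0.36, with permutation p of 0.582, 0.171, 0.115 and 0.389. The lowest adjusted p was 0.383 for r and 0.342 for rho. Without the 2 libraries farthest from the median, r became -0.78, 0.70, -0.0006 and 0.36 in the same order. It thus changed sign for Trav, Trgv and Trdv, and none of the 4 relations was established. The 2 kinds of library number 4 each, too few for an r within either kind.

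Of the 4 loci, the gamma-chain segments had the largest difference between the groups. Trgv2, with 155 of the 214 gamma reads, overlapped between the groups, while the other 6 segments each had fewer summed reads in TLQP21. Trgv2 had 27, 24, 13 and 13 reads in Saline 1 to 4 and 18, 14, 15 and 31 in TLQP21 1 to 4. The groups overlapped in full, at 0.674 ± 0.240 and 0.619 ± 0.242 CPM, and edgeR gave a log2 fold change of -0.13 (SE 0.38, adjusted p = 1.0). Limma's voom, which weights libraries by quality, gave -0.72 (SE 0.29, unadjusted p = 0.0343, adjusted p = 0.444).

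The 6 other gamma segments together had 7, 10, 16 and 17 reads in Saline and 2, 3, 2 and 2 reads in TLQP21. Every Saline library had more than every TLQP21 library, and the summed reads were 50 against 9. In CPM this was 0.445 ± 0.184 against 0.0707 ± 0.0108, a 6.29-fold ratio of the means and -2.56 on the log2 scale (exact permutation p = 0.0286, the smallest possible, not adjusted). The difference was -1.91 within libraries with Xist and -3.21 within libraries with Y-linked transcripts. Leaving out the segment with most reads was an alternative to the sum over all 7 gamma segments, whose difference of -0.75 had p = 0.0571 by the same exact test and 0.190 after adjustment. Without TLQP21 4, in which Trgv2 was highest, that difference was -0.96 (exact permutation p = 0.0286). With so few reads, counting error is a large part of each library's value. The gamma constant genes Tcrg-C1, Tcrg-C2, Tcrg-C3 and Tcrg-C4 each overlapped between the groups, with lower means in TLQP21. They were at 0.980 ± 0.673, 2.34 ± 0.850, 0.0701 ± 0.0491 and 0.371 ± 0.120 CPM in Saline. In TLQP21 they were at 0.719 ± 0.144, 1.90 ± 0.946, 0.0334 ± 0.0484 and 0.319 ± 0.188 CPM.

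Tcrg-V1 had 4, 5, 3 and 6 reads in Saline and 1, 1, 0 and 2 in TLQP21, without overlap between the groups. Its transcript is a close relative of that of Trgv2, with 356 of 374 aligned bases identical (95.2%). No stretch of 150 bases was common to both. Tcrg-V6, the segment of a gamma-delta population known to make Il17a in tissues, had 1, 0, 4 and 8 reads in Saline and 0, 0, 1 and 0 in TLQP21. Most of its reads, 8 of 14, came from Saline 4. Tcrg-V7, known from intraepithelial lymphocytes of the gut, had 1, 3, 3 and 1 reads in Saline and 0, 2, 1 and 0 in TLQP21. Tcrg-V3 had 6 reads in Saline and 1 in TLQP21. Tcrg-V5, the segment of the gamma-delta T cells of mouse epidermis, had 4 reads and Tcrg-V4 had 1, all of them in Saline.

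**Figure D2:**
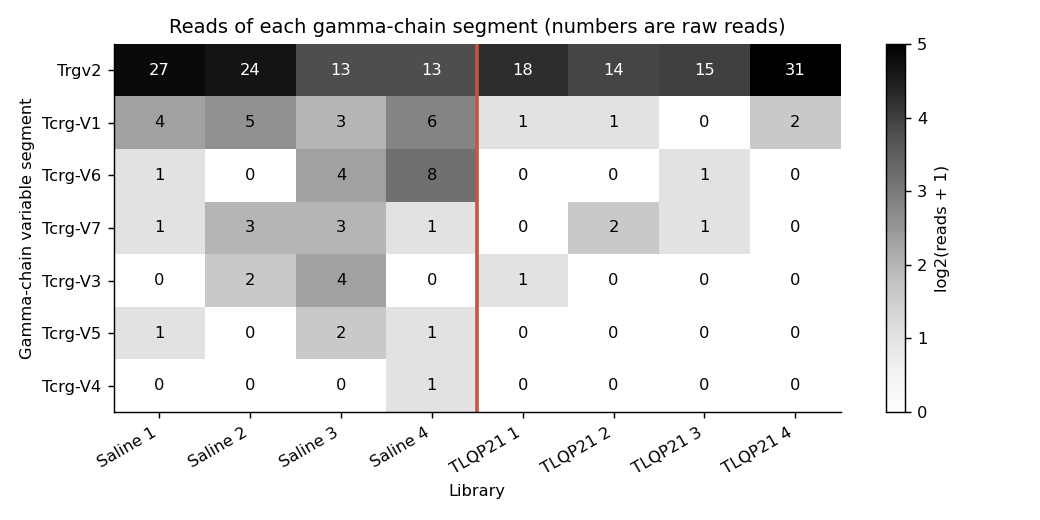
Raw reads of each gamma-chain segment (rows) in each library (columns), with the number in the cell and the shade giving log2(reads + 1); the vertical line parts Saline from TLQP21. Trgv2 is filled in all 8 libraries, while the 6 lower rows sum to 7 to 17 reads in each Saline library and 2 to 3 in each TLQP21 library.

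Delta-chain reads came almost entirely from Trdv4, with 202 of 208. It was the most-read member, and also the highest per length at 1.87 CPM per kb of transcript. Trdv4 had 19, 23, 23 and 20 reads in Saline and 24, 36, 15 and 42 in TLQP21. The TLQP21 libraries lay on both sides of the narrow Saline range, and the log2 fold change was 0.29 (SE 0.32, adjusted p = 1.0 by edgeR). An antisense gene on the opposite strand, Gm30275, overlaps Trdv4 and had 11 reads. Trdc, the delta constant gene, had 27, 27, 16 and 46 reads in Saline and 24, 24, 10 and 7 in TLQP21, with a log2 fold change of -1.002 (SE 0.48, adjusted p = 1.0 by edgeR). In TLQP21 4 the 42 reads of Trdv4 stood beside 7 reads of Trdc. The remaining delta segments had few reads, with 3 for Trdv1, 2 for the inverted Trdv5, which overlaps Trdc in the annotation, 1 for Trdv2-2 and 0 for Trdv2-1.

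Other genes of gamma-delta T cells were read from a list of 8, of which 7 were in the table and 6 passed edgeR's filter. Of these 6, 4 were lower and 2 higher in TLQP21, none was called, and their median log2 fold change was -0.64 against 0.00 over all 18238 genes tested. Cd163l1, a scavenger receptor of gamma-delta T cells, had 32, 22, 30 and 149 reads in Saline and 32, 24, 20 and 12 in TLQP21 (adjusted p = 1.0 by edgeR). The value of Saline 4 stands apart. Zbtb16, a transcription factor of innate-like T cells, had 116, 60, 14 and 244 reads in Saline and 136, 21, 19 and 17 in TLQP21. Saline 4 was also the library with most reads of Trdc, of Tcrg-C1 (51 reads, against 14 to 29 in the others) and of Tcrg-V6. Its summed CPM of 6 neutrophil genes was 748, against 150.3 to 318 in the other 7 libraries, and of 6 acinar genes 36317 against 7518 to 20266. The part of these in the gamma-chain difference was not tested. Without Saline 4 the difference of the 6 gamma segments was -2.35 on the log2 scale (exact permutation p = 0.0286, the smallest for 3 against 4), an alternative added after the data were seen.

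The use of beta segments was more even in Saline than in TLQP21. Evenness was measured as the effective number of segments (the inverse Simpson index), which is the number of equally used segments that would give the same chance of drawing the same segment from a pair of reads. It was 14.6, 14.1, 14.6 and 14.2 in Saline 1 to 4 and 11.4, 11.4, 10.7 and 10.9 in TLQP21 1 to 4, without overlap. The means were 14.4 ± 0.249 and 11.1 ± 0.362 segments, a difference of -3.25 (exact permutation p = 0.0286, the smallest possible; 0.143 adjusted over the 10 measures). It was -2.91 within libraries with Xist and -3.59 within libraries with Y-linked transcripts. The counting error of a single library's value, 0.885 to 1.16 segments, was larger than the SD between libraries of either group.

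The segment with most reads held 11.3, 12.7, 12.6 and 11.9% of the Trbv reads in Saline and 16.7, 17.8, 19.8 and 19.2% in TLQP21. The groups did not overlap here either, at 12.1 ± 0.657% and 18.4 ± 1.41% (exact permutation p = 0.0286, adjusted 0.143). In Saline the leading segment was Trbv13-2 in libraries 1 and 2, level with Trbv1 at 19 reads in library 2, Trbv3 in library 3 and Trbv20 in library 4. In TLQP21 it was Trbv3 in libraries 1 and 4 and Trbv16 in libraries 2 and 3. With permutation only within the 2 kinds of library, both measures had p = 0.0556, the smallest that design allows. These 2 measures are computed from the same reads and are not independent of each other.

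**Figure D3:**
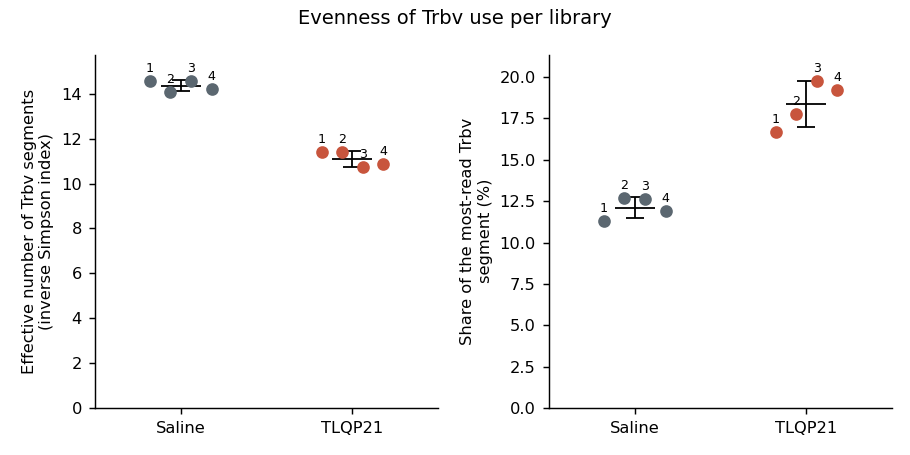
Effective number of Trbv segments (left, y axis in segments) and share of the most-read Trbv segment (right, y axis in percent of the library's Trbv reads), both axes from 0, with points numbered by replicate, group means and SD bars (n = 4). Saline lies at 14.1 to 14.6 segments and TLQP21 at 10.7 to 11.4, and the shares lie at 11.3 to 12.7% and 16.7 to 19.8%.

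Trbv16 had 2, 13, 11 and 11 reads in Saline and 24, 21, 18 and 16 in TLQP21. All TLQP21 libraries lay above all Saline libraries, and Saline 1 was far below the rest. Its share of Trbv reads was 7.96 ± 4.35% in Saline and 17.1 ± 2.13% in TLQP21. In edgeR's test over 18238 genes its log2 fold change was 0.93 (SE 0.46, unadjusted p = 0.0732, adjusted p = 1.0), and with voom 1.43 (SE 0.51, adjusted p = 0.414). Trbv3 had 9, 11, 13 and 4 reads in Saline and 26, 16, 8 and 20 in TLQP21, with overlap, and a log2 fold change of 0.77 (SE 0.45, adjusted p = 1.0). Per length, Trbv16 was the highest beta segment at 1.20 CPM per kb, followed by Trbv13-2 at 1.12 and Trbv3 at 0.968 CPM per kb.

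Trbv20 and Trbv15 went the other way. Trbv20 had 9, 8, 11 and 12 reads in Saline and 5, 0, 1 and 2 in TLQP21, and its share of Trbv reads was 8.79 ± 3.02% against 1.56 ± 1.35%, without overlap. Trbv15 had 12, 6, 7 and 6 reads in Saline and 3, 2, 0 and 5 in TLQP21, without overlap in CPM but with a slight overlap as a share of Trbv reads. Neither reached edgeR's filter on low counts. In the fit without that filter the log2 fold changes were -2.38 (SE 0.73, unadjusted p = 0.00623) and -1.73 (SE 0.72, unadjusted p = 0.0317), both with an adjusted p of 0.885.

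The evenness was recomputed without the segments that differed most, in alternatives added after the data were seen. Without Trbv16 the effective numbers were 13.5 ± 0.481 and 11.2 ± 0.648, and without Trbv20 and Trbv15 they were 12.4 ± 0.133 and 10.4 ± 0.560, both without overlap (exact permutation p = 0.0286). Without both Trbv16 and Trbv3 they were 12.7 ± 0.696 and 11.7 ± 0.954, and the groups overlapped (exact permutation p = 0.143). Among the other beta segments, the 3 known from natural killer T cells overlapped between the groups. Trbv13-2 had 14, 19, 9 and 3 reads in Saline and 19, 10, 13 and 4 in TLQP21, Trbv29 had 14 and 10 reads in all, and Trbv1 had 37 and 24. Trbv31, which lies inverted beyond the beta constant genes, had 16 and 9 reads.

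**Figure D4:**
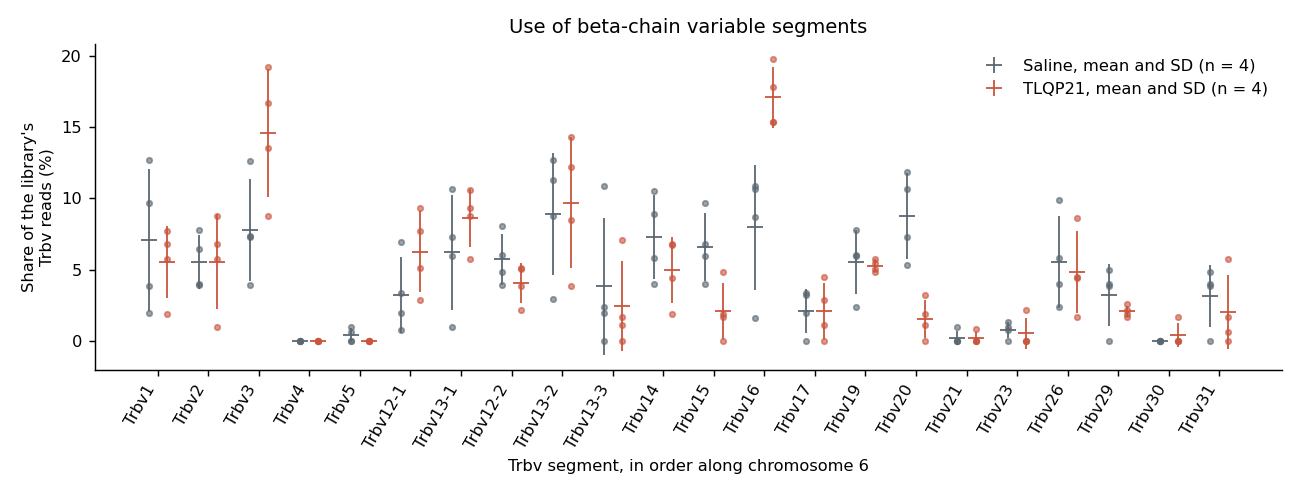
Share of each library's Trbv reads (y axis, percent) held by each of the 22 Trbv segments, in order along chromosome 6 (x axis), for Saline and TLQP21, with points for libraries, horizontal marks for means and bars for the SD (n = 4). For Trbv16 all TLQP21 points lie above the Saline points, and for Trbv20 all lie below; Trbv15, which parts the groups in CPM, overlaps slightly as a share.

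The order of use of the 22 beta segments was positively correlated between every pair of libraries. Spearman's rho between 2 Saline libraries lay between 0.32 and 0.72 (median 0.53 over 6 pairs), and between 2 TLQP21 libraries between 0.53 and 0.83 (median 0.70 over 6 pairs). Between a Saline and a TLQP21 library it lay between 0.41 and 0.77 (median 0.56 over 16 pairs). These are correlations across segments within the same libraries and describe likeness only.

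Single segments were compared in the fit over all genes. Of the 144 members, 5 passed edgeR's filter (Trdv4, Trgv2, Trbv16, Trbv3 and Trbv13-2), and none was called at an adjusted p of 0.05 or had an unadjusted p under 0.05. Over all 18238 genes tested, edgeR called 0 (0%) and 3.06% had an unadjusted p under 0.05, 2.26% lower and 0.795% higher. Trbv13-2 had a log2 fold change of -0.09 (SE 0.58). Without the filter 95 members were tested and again 0 were called, with 5 lower and 1 higher in TLQP21 at an unadjusted p under 0.05, beside 2.71% and 0.821% of all genes (3.53% in either direction). The lower ones were Trbv20, Tcrg-V1, Trav14-3, Tcrg-V6 and Trbv15, and the higher one was Trav13-2. Both Trav segments are named for this count, with 7 reads in Saline and 0 in TLQP21 for Trav14-3 and 0 and 9 for Trav13-2. DESeq2 called 0 of 16 members that had an adjusted p, and 0.0192% of all such genes, with 4 of 95 lower and 0 higher at an unadjusted p under 0.05 (1.69% and 0.615% of all genes, 2.3% in all). Limma's voom called 0 of 5, and 0.00548% of all genes, with 1 lower and 1 higher at an unadjusted p under 0.05 (6.62% and 3.98% of all genes, 10.6% in all).

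Among the 40 members with at least 10 reads, 3 had all TLQP21 libraries below all Saline libraries in CPM (Trbv20, Trbv15 and Tcrg-V1) and 1 had all above (Trbv16). Of 24968 genes with as many reads, 1.09% lay below and 0.881% above in this way. Of the 95 detected segments, 67 were seen in both groups. Segments seen in only 1 of the groups were 11 for Saline, with 33 reads among them, and 17 for TLQP21, with 52 reads. The share of all genes seen in only 1 group was not computed, so these counts are not read as a difference.

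Alpha-chain reads were spread so thinly that the leading segment changed from library to library. The most-read were Trav14d-3-dv8 and Trav3-3 with 21 reads each, Trav16n with 20, and Trav7d-3 and Trav9-4 with 17 each. Trav14d-3-dv8 had 15 of its 21 reads in Saline 2. Trav16n had 12 of 20 in Saline 1. Trav3-3 had 9, 2, 3 and 2 reads in Saline and 0, 3, 2 and 0 in TLQP21. Each of these 3 had its highest count in a single Saline library and was low or absent in most others.

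In the other libraries the leading alpha segment was Trav9-4 (6 reads, Saline 3, level with Trav14-2), Trav16 (5 reads, Saline 4), Trav7d-3 (5 and 7 reads, TLQP21 1 and 2), Trav7-4 (3 reads, TLQP21 3, level with Trav12-2 and Trav16d-dv11) and Trav6-5 (10 reads, TLQP21 4). The effective number of alpha segments was 19.5 ± 5.86 in Saline and 30.4 ± 12.4 in TLQP21, with wide overlap (exact permutation p = 0.200, adjusted 0.500). The difference of 10.9 segments ran from 6.93 to 15.2 with 1 library left out, and was 2.65 with the exponential of Shannon entropy in place of the inverse Simpson index (exact permutation p = 0.543). The number of segments of all loci detected after thinning to the smallest library was 49.1 ± 8.68 in Saline and 45.3 ± 7.60 in TLQP21 (exact permutation p = 0.514).

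Trav1, the segment of mucosal-associated invariant T cells, had 3 reads in Saline 1 and 2 in TLQP21 2. Trav11 and Trav11d had none, which allows up to 3 reads, or 0.0125 CPM over the 8 libraries, for a count of 0. Their transcripts were identical over 342 of 342 aligned bases, so a read within these bases cannot be assigned to either gene alone. The sources used here do not state how reads that fit several genes were counted, and the 0 cannot be read as an absence of natural killer T cells.

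Sequence identity was therefore computed for every member. Each stretch of 150 bases, the length of a read, was compared with all other annotated transcripts. Of 68 members with no shared stretch 6 were not detected (8.82%), of 39 with some shared stretches 12 (30.8%), and of 37 with every stretch shared 31 (83.8%). The last class held at most 7 reads per segment. All but 1 of its members belonged to Trav, the remaining one being C920008G01Rik. No gamma segment and only Trbv4 and Trbv5 among the beta segments shared a stretch. Undetected segments were thus more frequent among those with shared sequence, and what part shared sequence had in this was not tested.

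The alpha cluster of this strain holds repeated copies, marked d and n in the segment names. Of 46 Trav segments without such a letter 38 were detected, with 293 reads. Of 34 marked d 9 were detected with 61 reads, and of 28 marked n 16 were detected with 91 reads. Reads of the unmarked series were 158 in Saline and 135 in TLQP21, those of d 30 and 31, and those of n 47 and 44. Single libraries held much of these, with 20 of the 30 Saline reads of d in Saline 2 and 25 of the 47 Saline reads of n in Saline 1. Copies differed in how far a read tells them apart. Trav7d-3 and Trav7-3 had 398 of 402 aligned bases identical and 54.5% of their 150-base stretches in common, while Trav16n and Trav16, with 406 of 412 bases identical, had no such stretch in common.

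**Figure D5:**
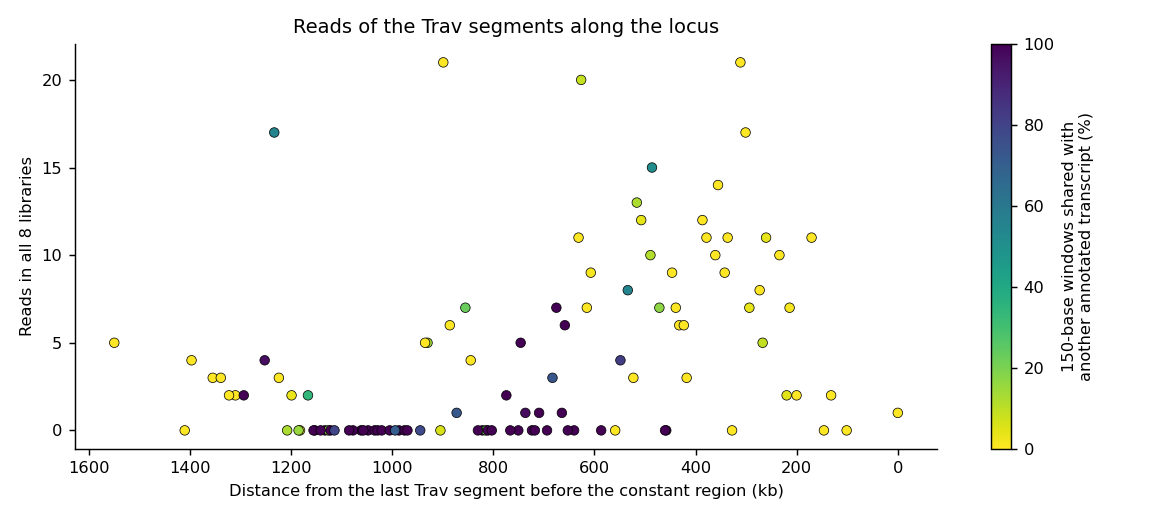
Reads in all 8 libraries (y axis) of each of the 108 Trav segments against its distance from the Trav segment nearest the constant gene (x axis, kb), coloured by the percent of 150-base stretches shared with another annotated transcript. Segments with every stretch shared (dark) lie at 0 to 7 reads, and those without a shared stretch (light) reach 21 reads.

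Genes that act with the receptor were read from lists, none of which had a called gene, beside a median log2 fold change of 0.00 over all genes tested. Of 11 tested genes of the receptor complex (CD3 chains and constant genes), 4 were higher and 7 lower in TLQP21, with a median log2 fold change of -0.22. Cd3e, a signalling chain of the complex, was at 5.68 ± 1.44 and 5.89 ± 1.63 CPM, and Trac at 9.13 ± 1.49 and 9.92 ± 0.748 CPM. Trbc1 was lower in TLQP21 without overlap, at 7.95 ± 1.02 and 6.26 ± 0.483 CPM. Its log2 fold change was -0.35 (SE 0.16, unadjusted p = 0.0505 and adjusted p = 0.99988 by edgeR). Trbc2 overlapped, at 9.04 ± 2.24 and 9.10 ± 1.12 CPM. Of 12 genes of the alpha-beta lineage 4 were higher and 8 lower, with a median of -0.23. Cd8a, the co-receptor of cytotoxic T cells, was at 17.4 ± 3.06 and 20.4 ± 3.11 CPM, and Cd4, that of helper T cells, at 9.89 ± 3.30 and 6.23 ± 1.40 CPM (adjusted p = 1.0 for both by edgeR).

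Of 15 genes of receptor signalling 2 were higher and 13 lower, with a median of -0.21. Lck, the kinase that starts the signal, was at 15.7 ± 3.42 and 13.7 ± 2.24 CPM. The machinery of segment joining had few reads in its lymphocyte-specific parts, with 5 reads of Rag1, 2 of Rag2 and 6 of Ptcra over all 8 libraries, and 79 of Dntt. Markers of other cells had no called gene either, and their summed levels overlapped between the groups. The 7 B cell genes were all lower in TLQP21 by sign, with a median of -0.34 and summed CPM of 37.7 to 59.2 in Saline and 21.3 to 51.0 in TLQP21. Of 6 neutrophil genes all were lower by sign, with a median of -1.01. The 6 tumour epithelial genes summed to 5026 to 5291 CPM in Saline and 5219 to 5713 CPM in TLQP21. Their part in the differences of V segments was not tested.

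Hepatocyte genes, which mark a library that stands apart, summed to 4041 CPM in Saline 2 and to 5.58 to 9.27 CPM in the other 7. TLQP21 4, at 5.90 CPM, did not stand apart in these genes. With Saline 2 and TLQP21 4 left out together, an alternative added after the data were seen, the effective number of Trbv segments differed by -3.27 and the leading share by 6.15 percentage points, both without overlap. Each had an exact permutation p of 0.100, the smallest for 3 against 3.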

How the data were processed

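Per the labels' protocols, RNA of whole tumours was extracted with a column kit, made into NEBNext Ultra libraries and sequenced in paired ends of 150 bp. The deposited values are whole-number counts per gene, not normalised. Per the submitters' processing notes, the build was GRCm38 (mm10) and the tools were DESeq2 1.32.0, featureCounts 1.5.0-p3 and HISAT2 2.0.5. The annotation release, the strand setting and the treatment of reads that fit several genes are not given in the sources used here. Without a stated strand, reads of Trdv4 and of its antisense gene cannot be told apart.

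All 144 members were found at the same position in GENCODE M21 of GRCm38, and 12 overlapped another gene. The counts were fitted over all genes with edgeR 4.0.16 in R 4.3.3 (default filter by group, TMM scaling, quasi-likelihood test, Benjamini-Hochberg adjustment, threshold 0.05). Other tools were limma 3.58.1 (voom, with quality weights per sample) and DESeq2 1.42.0. Sums per library were divided by TMM-scaled totals and compared on the log2 scale by exact two-sided permutation. The effective number of segments was the inverse Simpson index with the sum of n(n-1), and its counting error came from the delta method. Detection was set at the expected value after thinning to 28358465 counts. The edgeR fit was also run on counts simulated with known fold changes. Intervals and limits for a count of 0 cover counting error only.

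Named segments were the 5 most-read per locus, up to 3 per direction by p among those passing the filter, segments known for invariant or inverted use, all gamma and delta segments, and the leading alpha and beta segment of each library. Members, lists and tests were chosen with earlier results of these data known. Alternatives were other scalings, filters and tools, a replicate block, the Xist and Y-linked split and each library left out in turn.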

Additional observations from a re-analysis of the deposited data

Results flagged for a closer look

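The summed CPM of Trbv segments in TLQP21 1 was 5.34, against 3.02 to 3.40 in the other TLQP21 libraries. Its gap to the nearest library was 0.838 of the range of the group, above Dixon's critical value for 4 samples. Among the 32 groups of 4 examined, chance flags about 1 in 20.

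Trgv2 differed in direction between the kinds of library. In libraries with Xist it was lower in TLQP21 by a difference of -0.37 CPM, and in libraries with Y-linked transcripts it was higher by 0.26 CPM. In each kind both TLQP21 libraries lay on the same side of both Saline libraries, in the second kind by a narrow margin between TLQP21 3 (15 reads) and Saline 4 (13 reads), and the difference between the kinds was not tested.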

How the results depend on the processing

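For the 10 measures per library, 135 alternatives were run. Of these, 123 kept the direction and the side of an unadjusted exact permutation p of 0.05, 12 changed side and 0 changed direction. Not all of the 123 are a check on the side of 0.05. The smallest possible p was 0.125 with the replicate block, 0.0556 within the kinds of library and 0.100 for 3 against 3. In these settings a measure with p above 0.05 could not change side, and one below it had to. For summed Trgv (-0.75, p = 0.0571), the exact permutation p was 0.0286 with library totals without TMM scaling (-0.73), without Trgv2 (-2.56) and without Trgv2 and Saline 4 (-2.35). Leaving out each library in turn moved it between -0.96 and -0.61, past the threshold only without TLQP21 4. For summed Trgv the exact permutation p was 0.111 within the kinds of library and 0.125 with the replicate block. With Saline 2 and TLQP21 4 left out together it was 0.100, the smallest for 3 against 3. This held for all gamma segments (-0.93) and without Trgv2 (-2.58). TLQP21 4, left out here, was the only TLQP21 library to reach the Saline range of summed Trgv, at 1.02 CPM. Summed Trdv (0.21) moved between 0.029 and 0.46, past the threshold only without TLQP21 3.

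For the effective number of Trbv segments the smallest p was out of reach within the kinds of library (-3.25, exact p = 0.0556) and with Saline 2 and TLQP21 4 left out together (-3.27, exact p = 0.100). Without Trbv16 and Trbv3 it was -1.01 (exact p = 0.143). For the leading Trbv share these settings gave 6.25 and 6.15 percentage points (exact p = 0.0556 and 0.100).

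Equal replicate numbers did not pair the samples (correlations 0.11, 0.19, 0.27 and -0.05). With the replicate block the exact permutation p of the effective number (-3.25) and of the leading share (6.25) was 0.125, the smallest that block allows.

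Among single segments, no setting called any of the members tested. Trgv2 was -0.72 with voom (unadjusted p = 0.0343), moved between -0.42 and 0.060 with a library left out and changed sign without Saline 1 (0.060) and without TLQP21 2 (0.04). Trbv13-2 moved between -0.49 and 0.29 with a library left out and changed sign without Saline 1 (0.02), Saline 2 (0.29), TLQP21 2 (0.02) and TLQP21 4 (0.20). Depth limits every segment, since 27 of the 95 detected segments had 1 to 3 reads.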
